A study of Oryctolagus cuniculus with 6 samples.

Results

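The lysozyme genes of the rabbit were examined in primary limbal stem cells (LSCs), the epithelial progenitors at the border of the cornea, which were grown out of limbal explants. The members were selected by annotation, as every gene to which the deposited table gives the GO term lysozyme activity, and 6 of the 22190 genes in the table carry it. The family itself was chosen from the comparison of both groups, in which one of its copies, LOC100341160, had the deepest fall of all tested genes. The differences between the groups are therefore given as a description of these 6 libraries, with no p-value for any lysozyme gene. The series holds 3 libraries from fresh tissue and 3 from preconditioned tissue, all from Oryctolagus cuniculus. For preconditioning, the corneas were frozen in a cryomedium with serum and dimethyl sulfoxide to which 10 ng/mL IL-1β, an inflammatory cytokine, had been added, and they stayed in liquid nitrogen for 7 days before the explants were plated. The fresh group had neither freezing nor IL-1β, so that their effects cannot be told apart in this comparison. Strain, age, sex and the donor of each library are not given in the sources used here, and nothing states that libraries of a group came from separate animals. p-values then measure only the spread between these libraries.

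Lysozyme cuts the sugar backbone of peptidoglycan, the mesh that surrounds bacteria, and kills many Gram-positive species. On the ocular surface it is best known as a major protein of tears, where it is secreted by the lacrimal glands, and it is also stored in the granules of neutrophils and made in quantity by macrophages. The C type (chicken type) is the common form of mammals, and the g type (goose type) is a separate family with the same activity. Relatives of the C type in the sperm head, such as sperm acrosome-associated proteins, have kept the fold but act in reproduction.

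Each library had 31952352 to 34327534 counts on genes. Scaled counts (CPM) are counts relative to the library total after TMM scaling, which corrects for differences in the make-up of the libraries, and levels of different genes are compared as FPKM, which also divides by gene length. The labelled cell type was checked against 12 epithelial markers, of which 9 are in the table under those symbols. KRT5, a basal keratin, had 9601 ± 1156 CPM in fresh LSCs and 9320 ± 2234 CPM in preconditioned LSCs (SD, n = 3 per group). TP63 and PAX6, transcription factors of limbal and corneal epithelium, were at 3392 counts or more in every library. KRT15, a keratin of limbal progenitors, had only 30 to 319 counts per library, and KRT12 and KRT14 are not listed under these symbols.

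Of the 6 lysozyme genes, LOC100340903 and LOC100341160 are described as lysozyme C, and LOC108175363 and LOC103347294 as lysozyme C-like. These 4 share the same GO terms, among them cytolysis and defense response to bacterium, and passed the filter on low counts. The other two were close to undetected. LYG2, the g type gene, had 1 count in fresh replicate 2 and none in the other libraries. LOC100342234, described as sperm acrosome-associated protein 5, had 2 counts in fresh replicate 3, 2 counts in preconditioned replicate 3 and none elsewhere. Both lie under the floor of 3 counts per library, so that no difference between groups was detectable at this depth. No gene outside the 6 has the word lysozyme in its description. SPACA3, a sperm relative outside the GO term, had 11, 4 and 14 counts in the fresh libraries and 18, 17 and 19 in the preconditioned libraries, and LALBA, the milk protein alpha-lactalbumin of the same superfamily, had at most 8 counts in any library. SPACA3 did not pass the test described below (log2 fold change 1.06, adjusted p = 0.22 from edgeR), and LALBA had too few counts to be tested.

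Lysozyme C transcripts were plentiful in the fresh libraries and scarce in the preconditioned libraries. LOC100341160 had 1150, 2250 and 1446 counts in fresh replicates 1, 2 and 3, and 0, 0 and 1 count in preconditioned replicates 1, 2 and 3. LOC100340903 had 1086, 2104 and 1444 counts in the fresh libraries and 157, 128 and 114 in the preconditioned libraries. Both copies were thus highest in fresh replicate 2 and low in every preconditioned library, but only LOC100341160 dropped to the limit of detection.

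LOC108175363 had 271, 465 and 384 counts in the fresh libraries and 108, 93 and 66 in the preconditioned libraries. LOC103347294, the least abundant of the 4, had 112, 117 and 79 counts in the fresh libraries and 15, 28 and 16 in the preconditioned libraries. For each of the 4 genes, the lowest fresh library lay above the highest preconditioned library. The same is true of 18.8% of all tested genes, and a further 17.9% are separated in the other direction.

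**Figure D1:**
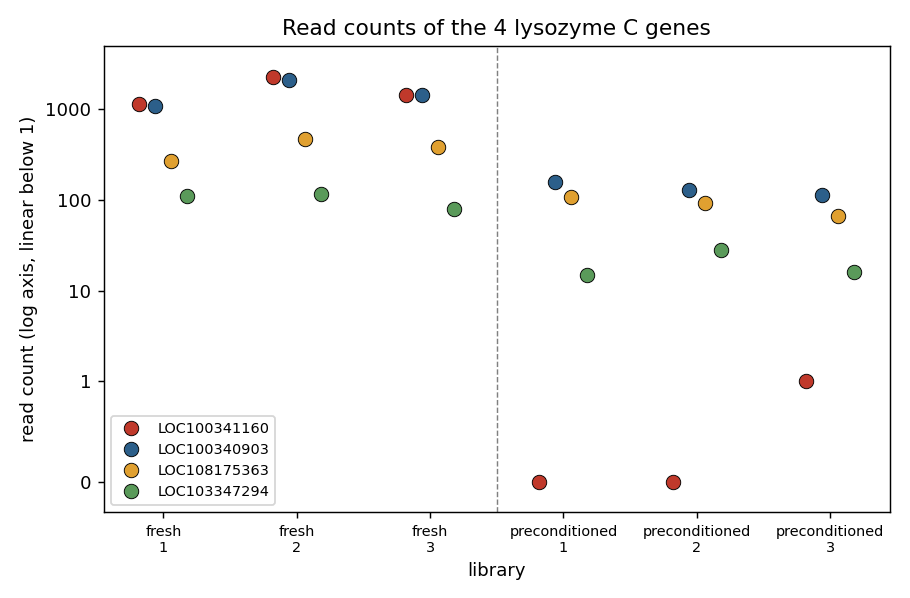
Read counts (log axis, linear below 1) of the 4 lysozyme C genes in each of the 6 libraries, 1 point per gene and library. LOC100341160 and LOC100340903 lie side by side in the fresh libraries, and LOC100341160 is at 0, 0 and 1 count in the preconditioned libraries while LOC100340903 has 114 to 157.

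Per length, LOC100341160 and LOC100340903 were expressed at nearly the same level in fresh LSCs, 42.5 ± 14.8 and 40.7 ± 13.4 FPKM (SD, n = 3 per group), a difference far smaller than the spread between libraries. LOC108175363 followed at 9.50 ± 2.39 FPKM and LOC103347294 at 4.24 ± 0.922 FPKM (SD, n = 3 per group), and in this order the levels of neighbours from the second place on did not overlap. By FPKM, LOC100341160 ranked between 1332 and 2496 among the 18963 to 19330 genes above 0 in the fresh libraries, so that it stood in the upper part of the expressed genes. In preconditioned LSCs the order of the first place changed. LOC100340903 led with 3.51 ± 0.493 FPKM, before LOC108175363 with 2.27 ± 0.474, LOC103347294 with 0.810 ± 0.280 and LOC100341160 with 0.00921 ± 0.0159 FPKM (SD, n = 3 per group). The rank of LOC100340903 had moved from between 1429 and 2610 in the fresh libraries to between 8082 and 8554.

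The fall differed in depth from copy to copy. LOC100341160 went from 45.4 ± 15.8 CPM to 0.0110 ± 0.0190 CPM (SD, n = 3 per group). With 4846 counts in all fresh libraries against 1 in all preconditioned libraries, the ratio was 4296, with an exact 95% interval of 771 to 169700 that covers counting error only. The fitted log2 fold change of -11.63 depends on the small count added in the fit, so that it gives the gene's place in a plot or an order but not the size of its fall. LOC100340903 fell from 43.4 ± 14.3 to 4.21 ± 0.522 CPM (SD, n = 3 per group), for a log2 fold change of -3.36 (standard error, SE, 0.27). LOC103347294 fell from 2.90 ± 0.640 to 0.626 ± 0.236 CPM (SD, n = 3 per group), for a log2 fold change of -2.20 (SE 0.41). LOC108175363 fell from 10.5 ± 2.61 to 2.81 ± 0.574 CPM (SD, n = 3 per group), for a log2 fold change of -1.90 (SE 0.29), the smallest of the 4. Its order against LOC103347294 lies within the standard errors. That order reversed without preconditioned replicate 1 (-2.04 against -2.03) and by limma on log2(FPKM + 1) (-1.67 against -1.53). Over all 15029 tested genes the median was 0.01 on the same scale, and 1064 of them (7.08%) had a value of -1 or less.

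A gene counted as called when edgeR's quasi-likelihood test gave a p of 0.05 or less after Benjamini-Hochberg adjustment and its level differed by 1 or more on the log2 scale, which are the cutoffs of the study's methods. Among all tested genes, 1.20% were called lower, the 4 lysozyme C genes with them, and 1.08% were called higher. Since the family was chosen from this contrast, nothing is read from that count or from the places that follow. In the order of fitted falls, LOC100341160 was number 1 of all tested genes, LOC100340903 number 57, LOC103347294 number 151 and LOC108175363 number 243. Of 8609 genes with at least 10 CPM in each fresh library, LOC100341160 was the single one with at most 3 counts in each preconditioned library, which describes the same fall again.

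**Figure D2:**
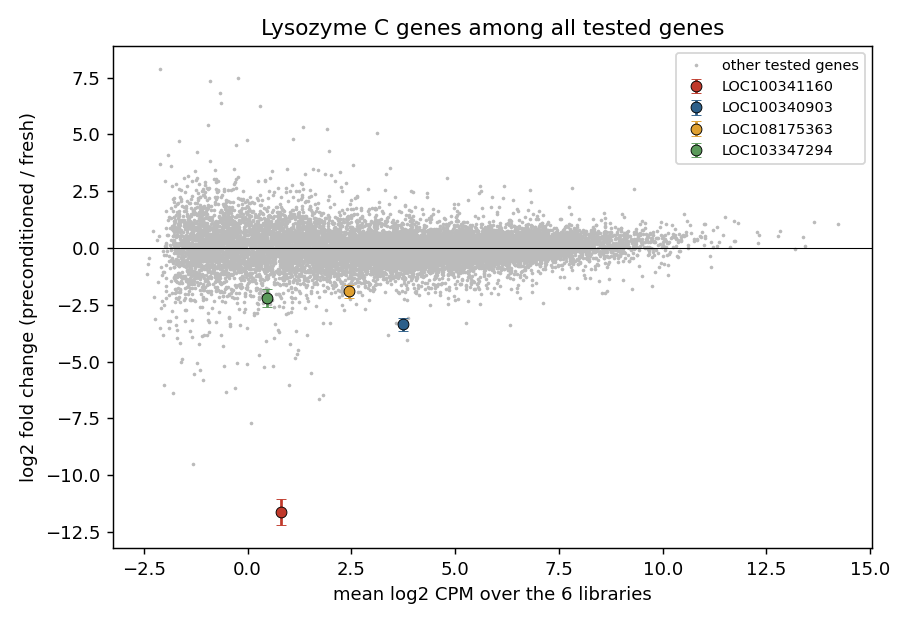
Log2 fold change (preconditioned over fresh) against mean log2 CPM over the 6 libraries for all tested genes (grey points), with the 4 lysozyme C genes in colour and their standard errors as bars. LOC100341160 lies lowest of all genes, at a fitted -11.63 that is not a measured size, and the other 3 copies lie between -3.36 and -1.90.

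The sum over the 6 genes was 2619, 4937 and 3355 counts in the fresh libraries and 280, 249 and 199 in the preconditioned libraries. In CPM it went from 102 ± 32.8 to 7.68 ± 1.01 (SD, n = 3 per group), which is 13.3-fold lower. The lowest fresh library was 8.91-fold above the highest preconditioned library. Without LOC100341160, the other 3 C type genes summed to 56.8 ± 17.0 CPM in fresh LSCs and 7.65 ± 1.07 CPM in preconditioned LSCs (SD, n = 3 per group), 7.42-fold lower. Without LOC100341160 and LOC100340903 together, the log2 ratio of the sum was -1.95. Loss of cells that express lysozyme and less lysozyme RNA per cell cannot be told apart in these bulk libraries.

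Within a library, the balance of the leading copies differed between the fresh and the preconditioned group. LOC100341160 took 43.9%, 45.6% and 43.1% of the summed lysozyme counts in fresh replicates 1, 2 and 3, with Wilson 95% intervals of 42.0% to 45.8%, 44.2% to 47.0% and 41.4% to 44.8%. It had 0 of 280 counts in preconditioned replicate 1, which allows a share of up to 1.07% when 3 counts are taken as the limit of a count of 0 (Wilson upper bound 1.35%), and 0 of 249 in preconditioned replicate 2, which allows up to 1.20% (Wilson upper bound 1.52%). In preconditioned replicate 3, its 1 count was 0.503% of the sum (Wilson 95% interval 0.0888% to 2.79%). Against LOC100340903 alone, the ratio of counts was 1.06, 1.07 and 1.001 in the fresh libraries and 0, 0 and 0.00877 in the preconditioned libraries. The fresh ratio was kept although fresh replicate 2 had 1.88 times the CPM of LOC100340903 in fresh replicate 1.

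LOC108175363 moved the other way in share. It held 10.3%, 9.42% and 11.4% of the sum in the fresh libraries and 38.6%, 37.3% and 33.2% in the preconditioned libraries. Its ratio to LOC100340903 was 0.250, 0.221 and 0.266 in the fresh libraries against 0.688, 0.727 and 0.579 in the preconditioned libraries, so this ratio did not overlap between groups either. LOC103347294 varied within the fresh group, with 4.28% of the sum in fresh replicate 1 (Wilson 95% interval 3.57% to 5.12%) against 2.37% (1.98% to 2.83%) and 2.35% (1.89% to 2.92%) in replicates 2 and 3, and it had 5.36% to 11.2% in the preconditioned libraries. Its ratio to LOC100340903 overlapped between the groups, at 0.103, 0.0556 and 0.0547 in the fresh libraries and 0.0955, 0.219 and 0.140 in the preconditioned libraries. Every shift in share is measured on a sum that was itself 13.3-fold smaller in the preconditioned group. The counting was made with htseq-count, whose setting for reads that fit several genes is not given in the sources used here, so that the split of reads between the copies is uncertain, and so is the sum if such reads were left out. How alike the copies are in sequence was not computed here.

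**Figure D3:**
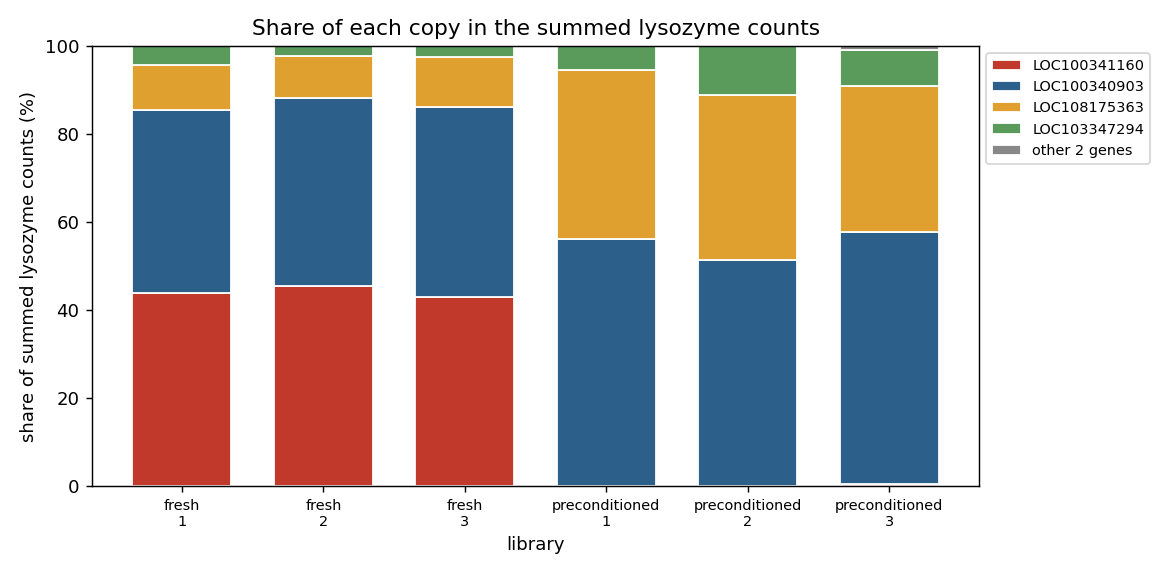
Share of each lysozyme C gene, and of the other two lysozyme genes together, in the summed lysozyme counts (%), 1 bar per library. The 3 fresh bars have nearly the same division, with 43.1% to 45.6% for LOC100341160, and in the 3 preconditioned bars its segment is at most 0.503% while LOC108175363 takes 33.2% to 38.6%.

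The position of the genes was read from a table of rabbit genes of the RefSeq assembly mOryCun1.1, matched by gene ID. It served only for names and for which genes are neighbours, because the authors' genome build is not given in the sources used here. In this table, 5 of the 6 genes have an entry. LOC100341160 carries the symbol LYZ there, and LOC103347294, LYZ and LOC108175363 follow each other on chromosome 11, in a stretch of 8 genes. LOC100340903 has no entry under its gene ID, although it took 41.5% to 43.0% of the lysozyme counts in the fresh libraries and 51.4% to 57.3% in the preconditioned libraries. Whether it and LOC100341160 are separate genes, or 1 gene present more than once in the assembly used by the authors, was not tested, so that the levels, shares and ratios given for this pair are those of the entries in the deposited table. LYG2 lies on chromosome 2 and LOC100342234 on chromosome X. Both copies of equal level in fresh cells have nearly the same length in the deposited FPKM, 1131 bases for LOC100340903 and 1133 for LOC100341160, against 1170 for LOC108175363 and 724 for LOC103347294.

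Of the 8 genes in this stretch, 4 are in the deposited table, and the only one of the 4 that is no lysozyme gene is LOC103348325, an uncharacterized long non-coding RNA. It had 219, 181 and 183 counts in the fresh libraries and 38, 19 and 16 in the preconditioned libraries, without overlap. It fell from 5.48 ± 0.751 to 0.764 ± 0.343 CPM (SD, n = 3 per group), for a log2 fold change of -2.83 (SE 0.38, edgeR adjusted p = 0.027). On mOryCun1.1 it spans the whole of LOC108175363. The strand setting of the counting is not given, so that reads of the RNA and of the lysozyme gene inside it may not be separable. This gene was looked up by position after the values of the lysozyme genes had been seen. Its call was lost without each fresh library (adjusted p = 0.11, 0.097 and 0.067 without replicates 1, 2 and 3) and without preconditioned replicates 2 (0.12) and 3 (0.064), and was kept without preconditioned replicate 1 (0.0040), while its log2 fold change stayed between -3.27 and -2.63.

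The genes on both sides of the stretch were read for their own values. The 4 nearest genes with a symbol on one side are RAP1B, NUP107, CPM and CPSF6, and on the other side YEATS4, FRS2, CCT2 and BEST3. None of the 7 tested was called by edgeR or DESeq2, and 2 had an unadjusted p under 0.05. Of all tested genes, edgeR called 1.20% lower and 1.08% higher, and 30.6% had an unadjusted p under 0.05. Nothing is read from the absence of calls among so few genes. CPSF6, a subunit of the complex that cuts messenger RNA before polyadenylation, had 90.2 ± 2.005 CPM in fresh LSCs and 60.6 ± 6.66 CPM in preconditioned LSCs (SD, n = 3 per group), equal to a log2 fold change of -0.57 (adjusted p = 0.042), which is under the fold cutoff. YEATS4, a chromatin reader next to LOC108175363, had 11.7 ± 2.05 and 13.7 ± 1.72 CPM (SD, n = 3 per group, log2 fold change 0.23, adjusted p = 0.46). CCT2, a chaperonin subunit, and FRS2, an adaptor of fibroblast growth factor receptors, had log2 fold changes of 0.18 and 0.09, with adjusted p = 0.46 and 0.69. BEST3 had at most 2 counts in any library and was not tested. The gene CPM, which encodes a carboxypeptidase, had the largest value of the flanking genes, at 1.41 (SE 0.65, adjusted p = 0.19), and its groups overlapped.

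**Figure D4:**
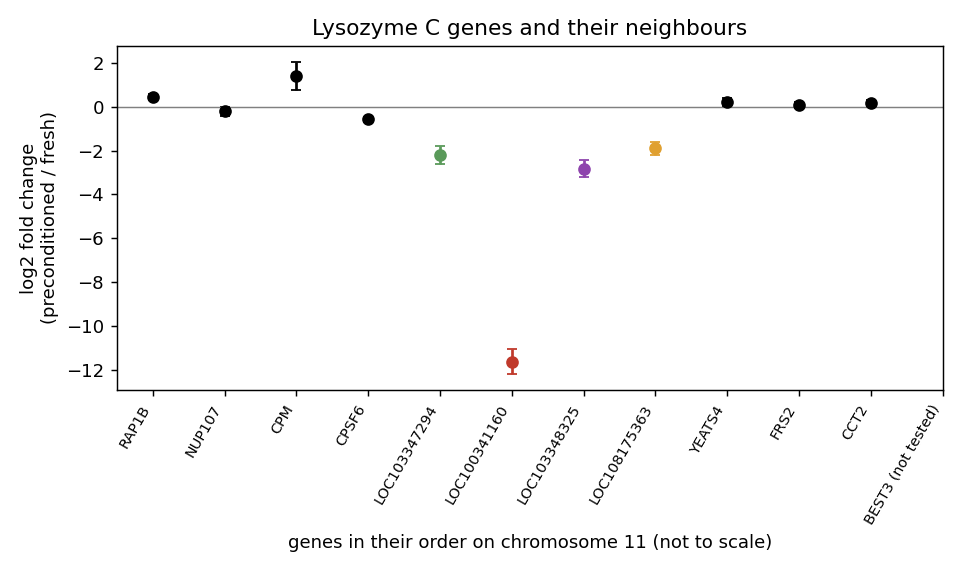
Log2 fold changes (preconditioned over fresh, bars are standard errors) of the lysozyme C genes and their neighbours, in their order on chromosome 11 of mOryCun1.1 and not to scale. LOC103347294, LOC103348325 and LOC108175363 lie between -2.83 and -1.90, LOC100341160 lies far lower at a value that depends on the fit, and the tested flanking genes lie between -0.57 and 1.41. LOC100340903 is not placed on this assembly.

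Lysozyme shares its task with other secreted antimicrobial proteins, and a list of 33 genes under this heading was compared. The list is broad and also holds genes of other roles, such as PIGR, the polymeric immunoglobulin receptor, and CHI3L1. In the table, 23 of them are found under those symbols and 17 were tested, with 2 called lower, 1 called higher and a median log2 fold change of -0.41. By comparison, 1.20% and 1.08% of all tested genes were called lower and higher. LTF, which encodes lactoferrin, the iron-binding protein that accompanies lysozyme in tears and neutrophil granules, had 39, 43 and 39 counts in the fresh libraries and 1 count in each preconditioned library. The ratio was 35.8 over 121 against 3 counts (exact 95% interval 11.9 to 176, counting error only), and the gene was called lower (adjusted p = 0.014 from edgeR). CHI3L1, a secreted chitinase-like protein without enzyme activity, had 3931, 4110 and 4727 counts in the fresh libraries and 521, 1321 and 1008 in the preconditioned libraries. Its level fell from 120 ± 8.42 to 30.4 ± 13.4 CPM (SD, n = 3 per group), for a log2 fold change of -1.98 (SE 0.33, adjusted p = 0.038).

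LGALS3, galectin-3, which binds sugars of mucins and of bacteria, rose from 528 ± 67.9 to 1130 ± 237 CPM (SD, n = 3 per group), equal to a log2 fold change of 1.097 (SE 0.19, adjusted p = 0.037). LGALS3 missed the fold cutoff with library size alone as the scaling (0.92) and by limma on log2(FPKM + 0.1) and log2(FPKM + 1) (0.91 with each). LTF missed it by limma on log2(FPKM + 1) (-0.58). With 1 library left out, the log2 fold changes stayed between -5.05 and -4.96 for LTF, -2.29 and -1.68 for CHI3L1, and 0.99 and 1.25 for LGALS3. The call of LTF was lost without fresh replicates 1 (adjusted p = 0.070) and 2 (0.073) and preconditioned replicate 2 (0.080). Without each library other than preconditioned replicate 1, neither CHI3L1 (adjusted p from 0.090 to 0.13) nor LGALS3 (0.080 to 0.14) was called. The same 5 omissions left 5 to 44 genes called higher and 9 to 30 called lower among all tested genes, against 163 and 181 with all libraries.

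Of the 17 tested genes of that list, 9 had an unadjusted p under 0.05, the 3 called genes included, against 30.6% of all tested genes. DESeq2 called 3 higher (DEFB1, DMBT1 and LGALS3) and 4 lower (LTF, CHI3L1, RNASE4 and RNASE6), against 2.49% and 2.87% of all genes in the table. Here and below, the DESeq2 shares are over all 22190 genes, including those removed by the filter on low counts. They are therefore not shares of the 15029 tested genes. The genes of the list with the highest mean FPKM were S100A9, S100A12, S100A8 and LGALS3, followed by WFDC2, a small secreted protease inhibitor. S100A9, a subunit of calprotectin, had 1545 ± 773 CPM in fresh LSCs and 915 ± 228 CPM in preconditioned LSCs (SD, n = 3 per group, log2 fold change -0.76, adjusted p = 0.22), and S100A8 and S100A12 had log2 fold changes of -0.55 and -0.41 with adjusted p = 0.42 and 0.52. WFDC2 had 262 ± 67.5 and 231 ± 98.6 CPM (SD, n = 3 per group, log2 fold change -0.18, adjusted p = 0.75). 3 secreted ribonucleases with antimicrobial activity were picked out after their values had been seen. RNASE4 had 921, 1931 and 1271 counts in the fresh libraries and 383, 483 and 173 in the preconditioned libraries, a log2 fold change of -1.82 (SE 0.41, edgeR adjusted p = 0.053). Its call depended on the setting, since it was called lower with a stricter CPM filter (edgeR adjusted p = 0.04995), with library size alone (0.038), by DESeq2 (0.00018) and by limma on log2(FPKM + 0.1) (0.041) and log2(FPKM + 1) (0.042), and by none of the fits that leave out 1 library (0.066 to 0.16). RNASE6 was at -2.38 on the log2 scale (adjusted p = 0.076 from edgeR and 0.044 from DESeq2) and ANG at -1.29 (0.13 and 0.059). DEFB1, a beta-defensin of epithelia, had 607, 712 and 226 counts in the fresh libraries and 984, 1264 and 1110 in the preconditioned libraries, without overlap. Its log2 fold change was 1.29 (adjusted p = 0.094 from edgeR and 0.012 from DESeq2). Of the 17 genes, 5 were separated between groups with the preconditioned libraries lower and 2 with them higher, where 18.8% and 17.9% of all tested genes were. Whether the counts of this list differ from the shares over all genes was not tested.

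**Figure D5:**
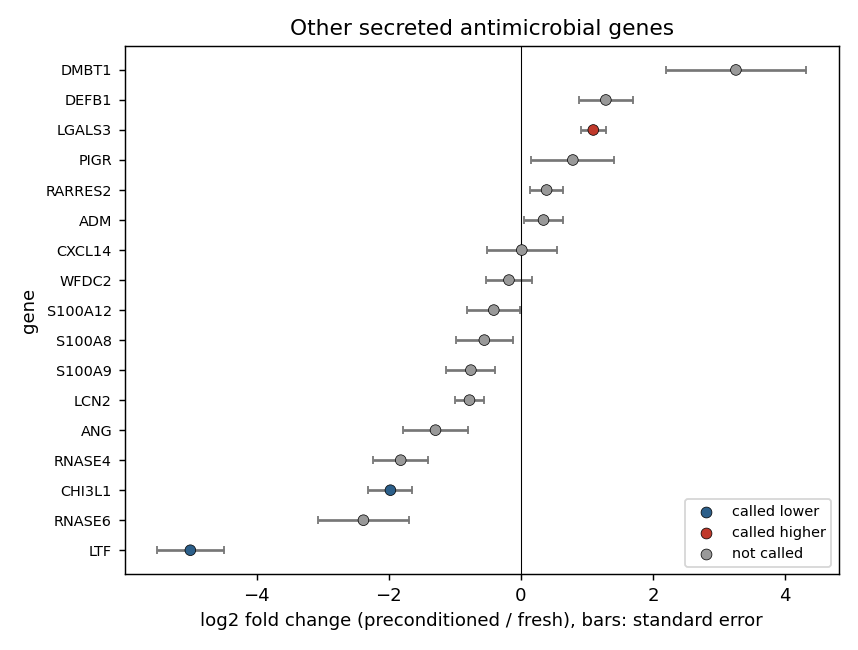
Log2 fold changes (preconditioned over fresh) of the 17 tested genes of the list of secreted antimicrobial proteins, with standard errors as bars and colour for genes called lower (blue), higher (red) or not called (grey). By edgeR, LTF at -5.00 and CHI3L1 at -1.98 were called lower and LGALS3 at 1.097 was called higher, and DMBT1 at 3.26 has the widest error.

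The receptors that sense fragments of peptidoglycan, and the proteins that act after them, showed no call in edgeR. Of 23 listed genes, 18 are in the table and 17 were tested, with a median log2 fold change of 0.02. At an unadjusted p under 0.05 there were 2 genes, and DESeq2 called 1 gene at the same cutoffs, TLR6, higher. Of all tested genes, edgeR called 1.20% lower and 1.08% higher, and 30.6% had an unadjusted p under 0.05. DESeq2 called 2.49% of all genes in the table higher and 2.87% lower. Nothing is read from the absence of edgeR calls in a list of this size. Apart from the genes of highest FPKM in these lists, NOD1, NOD2, TLR6, SPI1 and CEBPE were picked for their known roles or after their values had been seen. NOD1, the cytosolic receptor of peptidoglycan fragments from Gram-negative species, had 34.2 ± 3.50 CPM in fresh LSCs and 23.5 ± 7.06 CPM in preconditioned LSCs (SD, n = 3 per group, log2 fold change -0.54, adjusted p = 0.17). NOD2, its counterpart for muramyl dipeptide, had 34, 35 and 93 counts in the fresh libraries and 48, 56 and 41 in the preconditioned libraries (log2 fold change 0.03, edgeR adjusted p = 0.98). RIPK2, the kinase that both receptors engage, was at 0.70 on the log2 scale (adjusted p = 0.18), and NAGK, which recycles the sugars released from peptidoglycan, at -0.05 (adjusted p = 0.76). XIAP, MYD88 and IRAK4, which pass the signal on, had log2 fold changes of 0.59, -0.17 and -0.15 with adjusted p = 0.056, 0.58 and 0.78.

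Transcription factors known from the lysozyme promoter of myeloid cells were not called either. Of 10 listed, 8 were tested, 2 had an unadjusted p under 0.05 and none was called by edgeR or DESeq2, with a median log2 fold change of -0.26. Of all tested genes, edgeR called 1.20% lower and 1.08% higher, and 30.6% had an unadjusted p under 0.05. Nothing is read from the absence of calls among so few genes. CEBPD, a factor of inflammatory responses, had 203 ± 11.3 and 141 ± 17.4 CPM (SD, n = 3 per group, log2 fold change -0.52, adjusted p = 0.054). CEBPB was at -0.25 on the log2 scale (adjusted p = 0.47). The ETS family factors ELF1, ETS1 and ETS2 had 0.10, -0.42 and -0.27 (adjusted p = 0.55, 0.28 and 0.32). SPI1, the myeloid factor PU.1, was near the floor, with 12, 19 and 24 counts in the fresh libraries and 4, 65 and 17 in the preconditioned libraries, and CEBPE had 1 count in all libraries together.

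Cell types known to make lysozyme were followed through their markers. Of 15 markers of macrophages and monocytes, 12 are in the table. None was called by edgeR, 2 had an unadjusted p under 0.05, and DESeq2 called 1, CD68, higher. Of all tested genes, edgeR called 1.20% lower and 1.08% higher, and 30.6% had an unadjusted p under 0.05. DESeq2 called 2.49% of all genes in the table higher and 2.87% lower. These shares also stand beside the counts for the other cell types below. The 12 markers summed to 176 to 206 CPM in the fresh libraries and 201 to 451 CPM in the preconditioned libraries. The largest part of this sum was CD68, a lysosomal protein that is not limited to macrophages, with 107 ± 19.7 and 236 ± 100 CPM (SD, n = 3 per group, log2 fold change 1.14, adjusted p = 0.085 from edgeR and 0.0095 from DESeq2). PTPRC, the marker of all leukocytes, had only 7 to 17 counts in the fresh libraries and 9 to 47 in the preconditioned libraries. Without CD68 the other 11 markers summed to 71.6 to 112 CPM in the fresh libraries and 55.4 to 152 CPM in the preconditioned libraries. Among them LAPTM5, CD14 and FCER1G were at -0.28, 0.02 and 0.12 on the log2 scale (edgeR adjusted p = 0.64, 0.98 and 0.94), with overlap, and MARCO, a scavenger receptor of macrophages, at 0.77 (0.069), without overlap. Over the 12 markers the median log2 fold change was 0.71, and LAPTM5 alone had a negative value. ITGAM, MRC1 and PTPRC, picked out after their values had been seen, were at 1.65, 1.46 and 1.02 (edgeR adjusted p = 0.34, 0.30 and 0.41), with overlap. Of 10 neutrophil markers, 4 are in the table, and LTF alone was called. Their sum was 606 to 1798 CPM in the fresh libraries and 658 to 934 CPM in the preconditioned libraries. Nearly all of it was S100A12, at 1059 ± 642 and 797 ± 138 CPM (SD, n = 3 per group), so that the sum gives no level of neutrophils. CXCR2, the chemokine receptor of neutrophils, had 5.51 ± 0.576 and 4.19 ± 2.035 CPM (SD, n = 3 per group, log2 fold change -0.39, edgeR adjusted p = 0.50). CAMP had 1, 6 and 3 counts in the fresh libraries and 0 in each preconditioned library. MPO and ELANE, which define the granules, are not listed under these symbols. Of 14 lacrimal and goblet cell markers, 6 are in the table. They summed to 4.75 to 22.4 CPM in the fresh libraries and 5.15 to 19.8 CPM in the preconditioned libraries, 3 were tested with none at an unadjusted p under 0.05 (AQP5, PIGR and AGR2, at 0.14, 0.79 and -0.32 on the log2 scale), SPDEF and CLCA1 had at most 14 counts in any library, and TFF3 had 1 count in all libraries together.

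The summed epithelial markers had 12953 to 18789 CPM in the fresh libraries and 12316 to 18398 CPM in the preconditioned libraries. None of the 9 tested was called by edgeR or DESeq2, and 3 had an unadjusted p under 0.05, against 30.6% of all tested genes. Of all tested genes, edgeR called 1.20% lower and 1.08% higher. KRT5 made up most of the summed level, and the other 8 markers summed to 4566 to 9060 CPM in the fresh libraries and 4673 to 6658 CPM in the preconditioned libraries. TP63, EPCAM and PAX6 were picked out after their values had been seen. TP63 had 237 ± 10.1 CPM in fresh LSCs and 139 ± 38.9 CPM in preconditioned LSCs (SD, n = 3 per group, log2 fold change -0.77, edgeR adjusted p = 0.059), and its groups did not overlap. EPCAM, an epithelial adhesion molecule, was higher without overlap, at 82.9 ± 7.74 and 118 ± 13.7 CPM (SD, n = 3 per group, log2 fold change 0.50, edgeR adjusted p = 0.060). PAX6 had 198 ± 21.9 and 346 ± 131 CPM (SD, n = 3 per group, log2 fold change 0.81, edgeR adjusted p = 0.11), and KRT3, a keratin of differentiated corneal epithelium, was at -1.21 on the log2 scale (edgeR adjusted p = 0.30), both with overlap. KRT19, DSP and CDH1, which with KRT5 and KRT3 are the 5 markers of highest mean FPKM, were at -0.37, 0.14 and -0.07 (edgeR adjusted p = 0.59, 0.50 and 0.77). Of the 10 stromal fibroblast markers, COL1A1, a chain of type I collagen, was alone in being called higher, from 91.3 ± 29.8 to 578 ± 100 CPM (SD, n = 3 per group, log2 fold change 2.66, edgeR adjusted p = 0.015). The 10 summed to 529 to 1144 CPM in the fresh libraries and 1299 to 2323 CPM in the preconditioned libraries, but without COL1A1 the ranges overlapped, at 473 to 1036 and 779 to 1630 CPM. COL1A2, COL3A1, VIM and DCN were at 1.11, 0.85, 0.43 and -0.13 on the log2 scale (edgeR adjusted p = 0.17, 0.37, 0.50 and 0.92). Of 6 melanocyte markers, 2 were tested and none was called by edgeR, with 1 at an unadjusted p under 0.05 (30.6% of all tested genes) and 1, TYRP1, called higher by DESeq2 (2.49% of all genes in the table). Their sum was 4.61 to 5.85 CPM in the fresh libraries and 2.71 to 6.39 CPM in the preconditioned libraries, TYRP1 and MITF were at 2.59 and -0.61 on the log2 scale (edgeR adjusted p = 0.12 and 0.20), DCT had at most 10 counts, and PMEL, MLANA and TYR had at most 3 counts in every library. The part of a different mix of cells in the fall of lysozyme was not tested.

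Genes that followed LOC100340903, the lysozyme gene with the most counts, were ranked by Pearson's r of log2 CPM over the 6 libraries, as a description that rests mainly on the gap between the groups. Among the lysozyme genes, LOC100341160 had an r of 0.990, LOC108175363 of 0.989 and LOC103347294 of 0.941. Outside the family, 4 of the 5 highest values were those of CIC, a transcriptional repressor (0.999), TBC1D24 (0.995), LOC100348521, described as similar to ribosomal protein L3 (0.995), and HUWE1, a ubiquitin ligase (0.994). In all, 279 of 15025 genes reached 0.95. Of these 4, LOC100348521 was alone in a fall of comparable depth, from 8.50 ± 3.70 to 0.445 ± 0.0425 CPM (SD, n = 3 per group), with 216, 454 and 236 counts in the fresh libraries and 14, 13 and 15 in the preconditioned libraries. The lowest values were those of SRP14, KLHL9 and ATP5MK, at -0.999, -0.998 and -0.998. CIC, for example, went only from 132 ± 7.56 to 90.7 ± 1.85 CPM (SD, n = 3 per group).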

How the data were processed

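RNA-seq of polyA RNA from primary rabbit LSCs gave 6 libraries, grouped as fresh and preconditioned by the sample titles. The authors aligned reads with hisat2 (v. 2.1.0) and deposited the raw counts per gene from htseq-count (v. 0.11.2). The deposited FPKM, tested on the file, are the counts over the library's total and over 1 length per gene, a length that differed between libraries by a fraction of at most 8.9e-16. Build, annotation and strand setting are not given in the sources used here. RNA extraction is given as TRIzol in the sample records and as an Omega kit in the methods.

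Counts were fitted with condition as the only factor in edgeR 4.0.16 (R 4.3.3), with TMM scaling, filterByExpr (15029 of 22190 genes kept) and the robust quasi-likelihood test, adjusted by Benjamini-Hochberg over all tested genes. Standard errors come from the F statistic. A count of 3 was taken as the floor. With 31952352 or more counts per library, spread between libraries limits precision except for genes of few counts. Intervals of shares are Wilson's, the limit of a share at 0 is 3 counts of the total, those of count ratios are exact, and both cover counting error only. Gene IDs were matched to mOryCun1.1 (19462 of 22177). Fits were tested on simulated counts.

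The lysozyme genes, the gene lists and the rule for named genes (all lysozyme genes, called genes and the 5 highest by mean FPKM of each list, and the 5 most and 3 least alike genes) were chosen with earlier results of these data known. Of the 5 most alike genes and of the 5 of highest FPKM in salivary secretion, 1 each is not reported here. Genes outside the rule were picked for their role or after their values were seen. Alternatives were DESeq2 1.42.0, other scalings and filters, limma 3.58.1 on log2(FPKM + 1) and log2(FPKM + 0.1), a block for the replicate number, omission of each library in turn, and other sums and measures of likeness. Libraries of the same number did not deviate together (correlations across genes of -0.067, -0.073 and -0.109).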

Additional observations from a re-analysis of the deposited data

How the results depend on the processing

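Under all 14 alternatives run for them, including the fit with the replicate number as a block, all 4 lysozyme C genes kept a log2 fold change of -1 or less. The log2 ratio of the summed lysozyme CPM was -3.73, and -3.91 to -3.45 when 1 library was left out. It was -3.70 as a mean within replicate numbers (the replicate block), -4.08 without LOC100340903, -2.89 without LOC100341160 and -1.95 without both, the last pair of alternatives being added after seeing the data. The value of LOC100341160 ranged from -13.60 without preconditioned replicate 3, which has its single count, to -5.38 on log2(FPKM + 1), where the pseudocount sets the depth. Library size alone moved the median over all tested genes from 0.01 to -0.16 (log2) and the calls from 163 higher and 181 lower to 142 and 423, and log2(FPKM + 0.1) gave 141 and 449. The list of secreted antimicrobial proteins had 3 called genes, 7 with DESeq2 (3 higher and 4 lower), 0 with the replicate block, and 0 to 4 when 1 library was left out. The call of LOC103348325 was lost with the replicate block (edgeR adjusted p = 0.065) and on log2(FPKM + 1), where its log2 fold change was -0.34. The numbers are shared by samples whose deviations do not go together, and no fresh library had its highest correlation with the preconditioned library of its own number. For peptidoglycan recognition, the 0 calls became 1 with DESeq2 and ranged from 0 to 2 without 1 library, with the 2 reached without preconditioned replicate 1. Over all genes, the block left 13 calls higher and 17 lower, DESeq2 gave 553 and 637, and omission of preconditioned replicate 1 gave 616 and 930, while without any other single library there were 5 to 44 higher and 9 to 30 lower. Of the 5 genes most like LOC100340903, 1 to 2 stayed among the 5 when 1 library was left out, and 2 were among the 221 genes at the highest Spearman rho. Counts of 0 to 3 limit what can be said of LOC100341160, LTF, LYG2 and LOC100342234.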

Other observations

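Other genes of the annotations that lysozyme carries were counted after the values had been seen. Of 46 further genes with the GO term defense response to bacterium, 25 were tested. None was called by edgeR, 8 had an unadjusted p under 0.05 (30.6% of all tested genes did), and DESeq2 called 1 higher and 1 lower (2.49% and 2.87% of all genes in the table). Among its genes of highest mean FPKM, ANXA3, an annexin of neutrophils and epithelia, rose from 385 ± 41.1 to 587 ± 16.0 CPM (SD, n = 3 per group, log2 fold change 0.61, adjusted p = 0.041 from edgeR), under the fold cutoff. HP, the hemoglobin-binding acute phase protein haptoglobin, had 12248, 10653 and 21799 counts in the fresh libraries and 920, 5889 and 630 in the preconditioned libraries, without overlap but with a wide spread (log2 fold change -2.40, standard error 0.87, adjusted p = 0.12 from edgeR). LOC100358539, described as guanylate-binding protein 1, was at -1.97 on the log2 scale (edgeR adjusted p = 0.13), also without overlap, and RAB1A and S100A14 were at 0.41 and 0.11 (0.083 and 0.67).

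The pathway salivary secretion, to which the table assigns 3 of the 4 lysozyme C genes, holds 77 other genes. Of these, 51 were tested, with a median log2 fold change of 0.10. None was called by edgeR, 15 had an unadjusted p under 0.05, close to the 30.6% of all tested genes, and DESeq2 called 1 higher and 2 lower, against 2.49% and 2.87% of all genes in the table. CST3, the secreted protease inhibitor cystatin C, had 479 ± 125 and 670 ± 47.3 CPM (SD, n = 3 per group, log2 fold change 0.48, adjusted p = 0.15 from edgeR). Among the others of highest mean FPKM, CALM2, ATP1B3 and LOC100008904 were at 0.69, 0.20 and 0.34 on the log2 scale (edgeR adjusted p = 0.061, 0.29 and 0.13).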
